A study of Homo sapiens with 28 samples.

Results

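The H3K4me1 regions described here are all rows of a pair of peak lists from chromatin immunoprecipitation followed by sequencing (ChIP-seq), 53581 regions from cells given RAD21 siRNA (siRAD21) and 61108 from cells given control siRNA. They make up 114689 of the 393268 peaks in the 22 lists of the series. The cells were GP5d, an established human colon adenocarcinoma line. They were transfected for 72 hours with 50 nM of siRNA against RAD21, or with a neutral siRNA that has no target, and each siRNA had 1 H3K4me1 library. A control region was called kept where it shared 1 bp or more with a siRAD21 region and lost where it shared none, and a siRAD21 region was called new where it overlapped no control region. Lost and new thus describe the lists, not the mark itself. With 1 library a side the lists differ without any replicate to check them, and no test was made. All intervals below are 95% intervals that cover counting error only.

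Monomethylation of lysine 4 of histone H3 is laid down mainly by the KMT2C and KMT2D methyltransferases. It is known for marking enhancers, both active and primed, and the shoulders of active promoters, where it flanks nucleosome-depleted DNA bound by transcription factors. Cohesin, a ring that includes RAD21 and SMC3, extrudes chromatin loops and is thought to bring enhancers and promoters together. In colon epithelial cells, enhancers with this mark are bound by factors such as HNF4A and KLF5.

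The name H3K4me1 comes from the titles and the target tag, while the antibody's catalogue number in the labels is one known for binding histone H3 in any state of methylation, so the mark behind both libraries is in doubt. A separate siRNA tag of the siRAD21 H3K4me1 library names RAD23, against its title and description, which name RAD21. The knockdown itself, in RNA or protein, was not analysed here. The RAD21 lists held 19752 peaks under siRAD21 and 36204 under control siRNA. Without repeated positions their libraries held 9052392 tags under siRAD21 and 14724408 under control siRNA, so list length does not measure the knockdown. After removal of repeated positions the H3K4me1 libraries held 9953944 tags under siRAD21 and 18867516 under control siRNA, a ratio of 0.528. The rabbit immunoglobulin (IgG) libraries used as background held 4101535 tags under siRAD21 and 8916252 under control siRNA, a ratio of 0.460. Repeated tags made up 4% of the siRAD21 library and 18% of the control library, and the peak caller's modelled fragment length was 379 bp under siRAD21 and 297 bp under control siRNA. The share of tags that lay inside called regions was close, 55.5% under siRAD21 and 55.7% under control siRNA. Depth, background library, fragment length and siRNA all differ between the lists and cannot be told apart.

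Over all deposited regions, H3K4me1 regions were fewer and wider under siRAD21 than under control siRNA and covered nearly as much of the genome, and each of these directions turned with a limit on the false discovery rate (FDR). The median region was 2591 bp wide under siRAD21 (middle 50% range 1884 to 3897 bp) and 2384 bp wide under control siRNA (1717 to 3584 bp). Regions covered 180844865 bp under siRAD21, or 6.58% of the effective genome, and 188024224 bp under control siRNA, or 6.84%. The ratio of covered base pairs was 0.962, against a ratio of region numbers of 0.877. The smaller number was found among regions under 4 kb. Under 2 kb there were 15863 siRAD21 regions and 22150 control regions, and between 2 and 4 kb 24963 siRAD21 and 26599 control regions, whereas between 4 and 6 kb there were 7278 siRAD21 and 7257 control regions, and at 20 kb and above 151 siRAD21 and 89 control regions. The FDR is the authors' own, which MACS estimates by exchanging ChIP and IgG. Every siRAD21 region had an FDR of 2.62% or less, while control values reached 8.12%, so a limit of 5% kept all 53581 siRAD21 regions and 41418 control regions and gave a number ratio of 1.29, a covered bp ratio of 1.18 and a median width ratio of 0.884, against 1.09 over all regions.

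Most of the mark's territory was found under both siRNAs. Of the control regions, 45398 (74.3%) were kept and 15710 (25.7%) were lost, and 9476 siRAD21 regions (17.7%) were new. The lists shared 142939177 bp, which was 79.0% of the siRAD21 territory and 76.0% of the control territory. The median kept control region was covered over 96.0% of its length, and 15784 kept regions (34.8%) were covered in full. New and lost regions were alike in width, but not in FDR. An FDR under 5% was found in 36.4% of lost and 78.6% of kept control regions. All siRAD21 regions, new ones included, were under that limit. New regions had a median width of 1774 bp, against 2841 bp for siRAD21 regions that overlapped a control region, and lost regions one of 1674.5 bp, against 2741 bp for kept regions. Both were also weak on the authors' own significance score, −10 × log10 p, which is 50 or more by the caller's cutoff. New regions had a median score of 86.7 and overlapping siRAD21 regions one of 207.7. Kept control regions had a median of 281.6 and lost regions one of 97.0.

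Width went together with overlap in both lists. Over 5 classes of about equal size, from narrowest to widest, the new share of siRAD21 regions was 43.2%, 23.2%, 12.6%, 6.84% and 2.62%. The kept share of control regions was 43.03%, 64.5%, 77.5%, 89.4% and 97.1%. The order did not hold at the far end. The share found in 1 list only was lowest at 8 to 10 kb, at 1.21% new under siRAD21 and 0.897% lost under control siRNA. At 20 kb and above 9 of 151 siRAD21 regions were new (5.96%, interval 2.76 to 11.01) and 4 of 89 control regions were lost (4.49%, interval 1.24 to 11.1). These very broad regions held many tags, a median of 1181 under siRAD21 and 2221 under control siRNA. Even so, 5.96% of them under siRAD21 and 8.99% under control siRNA had a score under 100, against 0.954% under siRAD21 and 0.717% under control siRNA at 8 to 10 kb. The part of the score in their loss or gain was not tested.

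**Figure D1:**
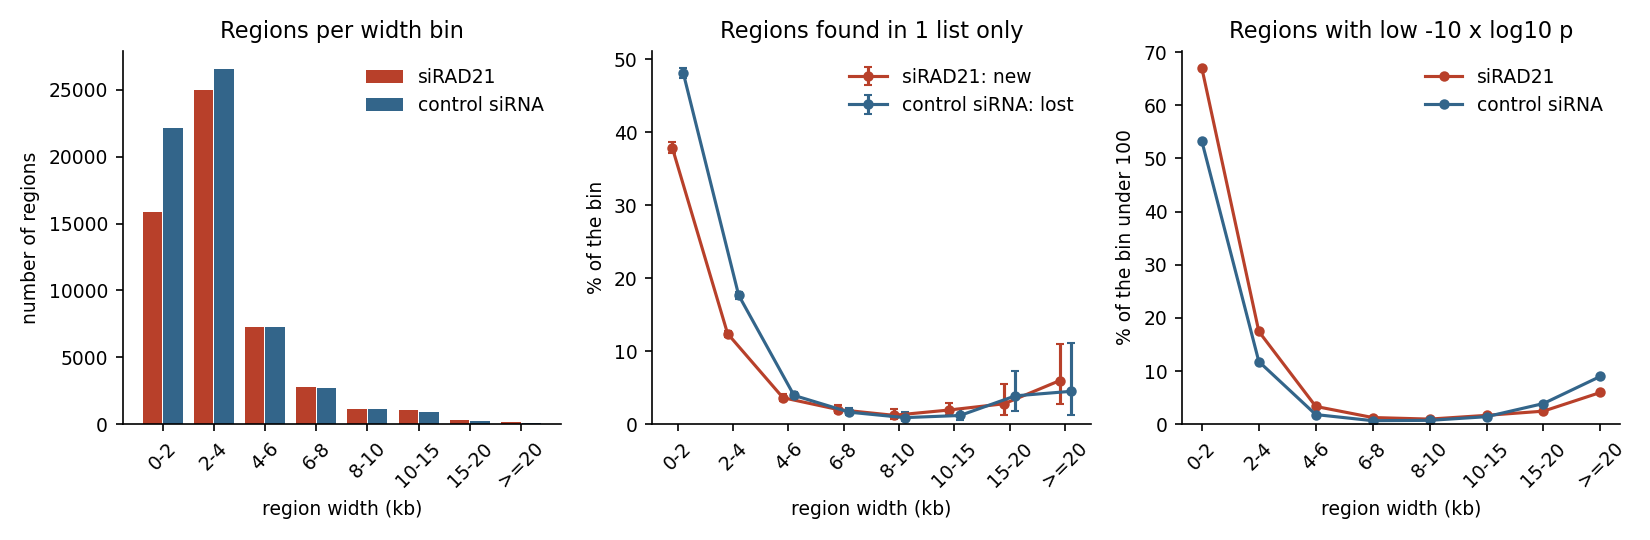
H3K4me1 regions by width in kb, siRAD21 in red and control siRNA in blue. The left panel counts regions per bin, the middle panel gives the percentage found in 1 list only with exact 95% counting intervals, and the right panel gives the percentage with a −10 × log10 p under 100. Narrow regions are fewer under siRAD21, and both percentages are lowest between 6 and 10 kb and higher again at 20 kb and above.

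Kept regions mostly matched one to one. Joined by overlap, the lists formed 42066 groups, of which 37761 (89.8%) held 1 region of each list. A further 2419 groups held several control regions under 1 siRAD21 region, 1279 held several siRAD21 regions over 1 control region, and 607 held several of both. Among overlapping siRAD21 regions 6.99% (interval 6.75 to 7.23) spanned more than 1 control region, and among kept control regions 4.25% (4.07 to 4.44) were divided between more than 1 siRAD21 region. With FDR under 5% in both lists these shares were close, 5.03% (4.81 to 5.26) merging and 4.90% (4.67 to 5.13) split. Merging siRAD21 regions had a median width of 5691.5 bp and split control regions one of 6040 bp. In one-to-one pairs the siRAD21 region was wider in 53.7%, and the median width ratio was 1.02 with a middle 50% range of 0.883 to 1.16. Its edges lay a median of 27 bp further out on the left and 30 bp on the right, while the modelled fragment was 82 bp longer under siRAD21. In 5 classes of pairs by width, the narrowest by siRAD21 width had a median ratio of 0.908 and the narrowest by control width one of 1.18. The change in width thus depended on which list set the classes, and no widening of narrow regions can be read from it.

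Over all deposited regions, short gaps between neighbouring regions closed more often than they opened. The siRAD21 list had 12323 gaps of up to 2000 bp between neighbours, and 16.2% of them lay within 1 control region. The control list had 13669 such gaps, and 23.9% of them lay within 1 siRAD21 region. Gaps that closed under siRAD21 had a median length of 240 bp. A larger set had a gap in the other list too, 3247 siRAD21 gaps with a median of 784 bp and 4447 control gaps with a median of 852 bp.

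Factor summits were set against these gaps as a further readout. Among the peaks of MYC, a growth regulator found mostly at promoters, the density of summits in gaps was 1.66 times that within regions under siRAD21 and 1.39 times under control siRNA. For NIPBL, the protein that loads cohesin onto DNA, the quotient was 2.17 under siRAD21 and 0.716 under control siRNA. JUND, an AP-1 subunit, had 1.36 under siRAD21 and 0.363 under control siRNA, and HNF4A, a nuclear receptor of gut and liver epithelium, 0.686 under siRAD21 and 0.103 under control siRNA. RFX2, a factor of ciliary genes, had 1.05 under siRAD21 and 2.28 under control siRNA, and KLF5, a zinc finger factor of the intestinal crypt, 0.629 under siRAD21 and 0.645 under control siRNA. With the gaps and regions of 1 list held fixed, siRAD21 summits had the higher quotient for 10 of 10 targets over control siRNA gaps and for 9 of 10 over siRAD21 gaps, so the difference was not particular to any of them. Over the control siRNA gaps, siRAD21 NIPBL summits had a quotient of 4.16 and control NIPBL summits 0.716, and siRAD21 MYC summits had 3.50 and control MYC summits 1.39. Over the same gaps siRAD21 CTCF summits had 1.08 and control CTCF summits 0.290, and siRAD21 RAD21 summits had 0.902 and control RAD21 summits 0.239. RFX2 was the exception over siRAD21 gaps, on few summits. Over control siRNA gaps its siRAD21 summits (63 in gaps) had 2.93 and its control summits (93) 2.28. Over siRAD21 gaps its siRAD21 summits (27) had 1.05 and its control summits (53) 1.23. No interval was computed for these quotients. Of the siRAD21 NIPBL summits, 745 (12.3%) lay in control siRNA gaps and 3230 (53.2%) in control siRNA regions.

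Regions found under both siRNAs more often held other proteins than lost regions did. MYC peaks were present in 24.9% of kept and 7.47% of lost control regions, NIPBL in 18.6% of kept and 6.26% of lost ones, and HNF4A in 18.3% of kept and 5.83% of lost ones. KLF5 was present in 12.4% of kept and 3.47% of lost regions. Cohesin and CTCF, the insulator protein that stops extruding cohesin, were closer. RAD21 was found in 20.04% of kept and 13.3% of lost regions, SMC3 in 23.4% of kept and 14.3% of lost ones, and CTCF in 19.5% of kept and 14.05% of lost ones. New regions had another make-up. With siRAD21 peaks, CTCF was found in 21.6% of new and 17.3% of overlapping regions, RAD21 in 14.4% of new and 11.4% of overlapping ones, and SMC3 in 9.47% of new and 7.14% of overlapping ones. HNF4A was found in 6.26% of new and 12.4% of overlapping regions, and JUND in 16.1% of new and 21.9% of overlapping ones. REST, a repressor of neuronal genes, was found in 2.45% of new and 1.83% of overlapping regions.

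**Figure D2:**
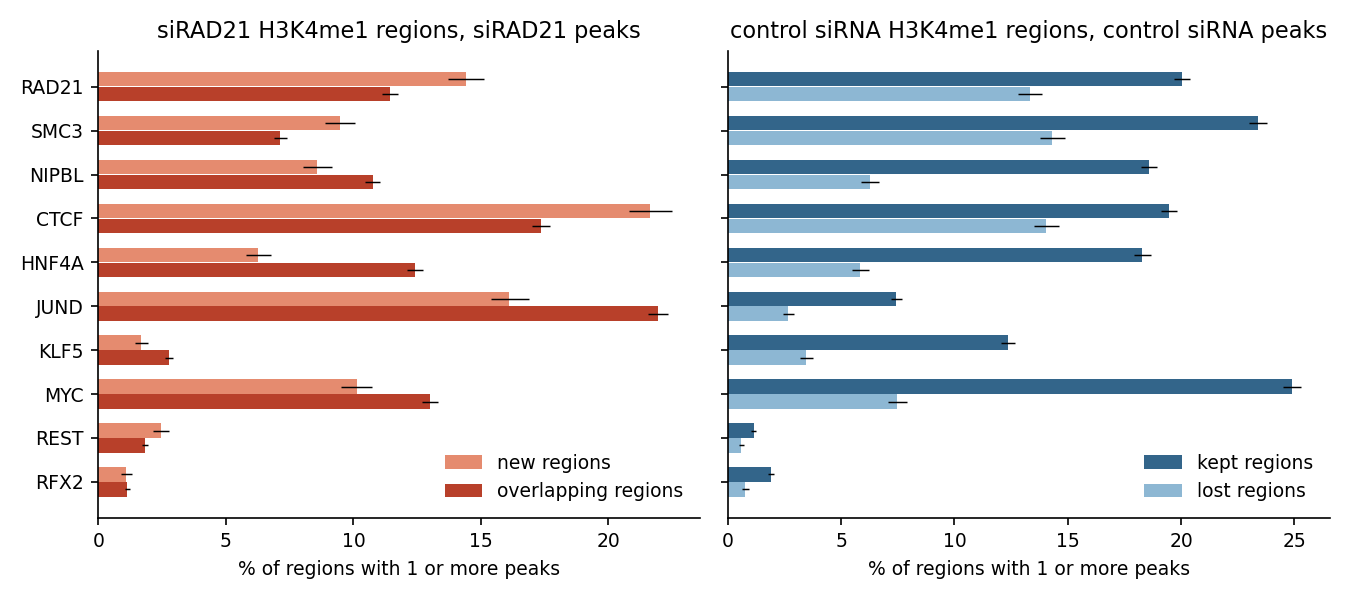
Percentage of H3K4me1 regions that hold 1 or more peaks of each of the 10 other targets, with exact 95% counting intervals. The left panel sets new above overlapping siRAD21 regions with siRAD21 peaks, and the right panel kept above lost control siRNA regions with control siRNA peaks. All 10 targets are more frequent in kept than in lost regions, while RAD21, SMC3, CTCF and REST are more frequent in new than in overlapping regions.

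Wide regions overlap more of everything, so regions with and without a target were also compared within the 5 width classes and the differences averaged with Mantel-Haenszel weights. At like width MYC went with the largest difference in kept share, 12.05 percentage points (interval 11.4 to 12.7), from plain shares of 90.6% with and 70.1% without a MYC peak. RFX2 followed with 8.97 points (6.99 to 10.9) and KLF5 with 8.55 (7.78 to 9.32). NIPBL went with 5.39 points, REST with 4.74, HNF4A with 3.47 and JUND with 3.29. Most of the plain difference for HNF4A, 18.6 points, was thus not seen at like width, where regions with HNF4A had a median width of 4130 bp and those without one of 2230 bp. SMC3 went with 2.90 points, CTCF with 1.94 and RAD21, the siRNA's own target, with 1.47 (0.725 to 2.22). For RAD21 the difference was -0.563 (-1.48 to 0.357) when only RAD21 peaks with a score of at least 100 were used, so its sign depends on weak RAD21 peaks. The new share was higher with than without 9 of the 10 targets at like width, most for REST at 8.43 points (6.08 to 10.8), CTCF at 7.97 (7.16 to 8.79), SMC3 at 7.50 and RAD21 at 7.21. Without matching it was higher only with RAD21, SMC3, CTCF and REST, so for NIPBL, JUND, KLF5, MYC and RFX2 the sign turned with matching. With MYC the difference was 2.01 points at like width and -3.82 without matching. With HNF4A it was -0.587 (-1.38 to 0.205) at like width and -8.93 without matching. Except for CTCF and RFX2, which were called against goat IgG, the 10 targets were called against the same rabbit IgG libraries as H3K4me1. Errors of that background are thus shared, and their part was not tested.

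**Figure D3:**
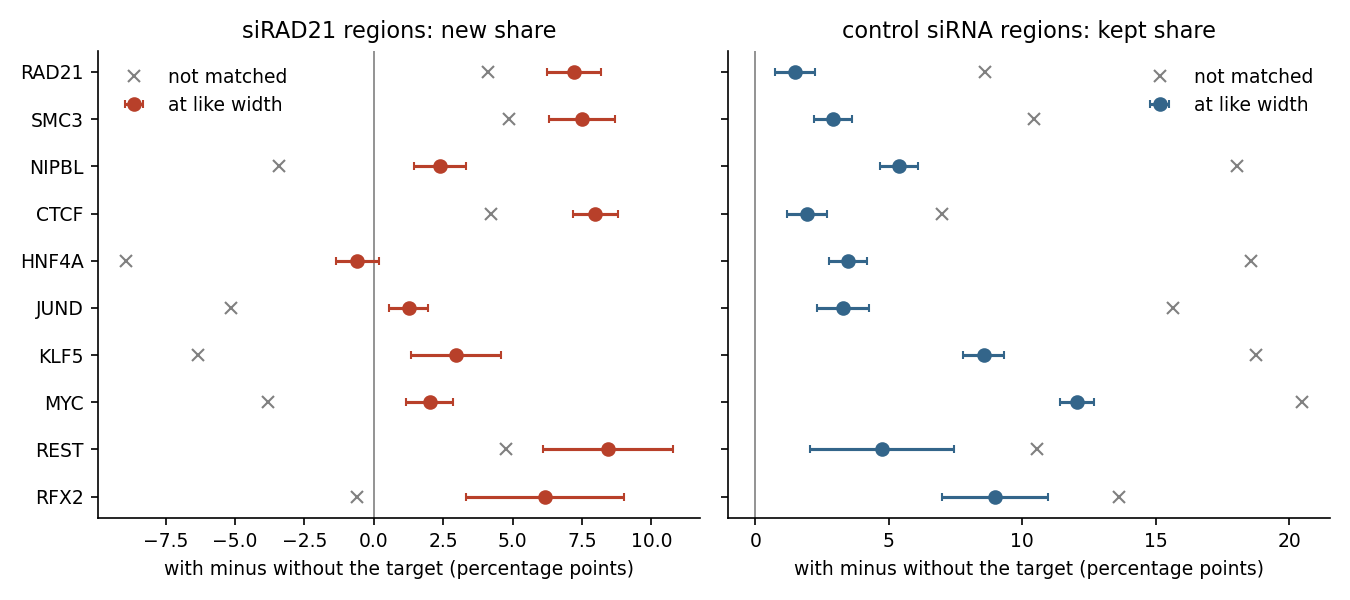
Difference in the new share of siRAD21 regions (left) and in the kept share of control siRNA regions (right) between regions with and without each target, in percentage points. Filled points are differences at like width with 95% counting intervals, and crosses are differences without matching. MYC has the largest difference in kept share, at 12.05 points, and REST and CTCF the largest in new share.

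Regions with both CTCF and RAD21 stood apart from regions with either alone. Of the 7230 control regions with both, 77.1% (interval 76.1 to 78.0) were kept, against 85.6% (84.5 to 86.7) of the 3812 with CTCF without RAD21, 89.1% (88.1 to 90.0) of the 3959 with RAD21 without CTCF and 71.7% of the 46107 with neither. Set against regions with neither at like width, the difference was -0.372 points (-1.31 to 0.567) with both, 7.45 points (6.33 to 8.56) with CTCF without RAD21 and 6.18 (5.18 to 7.19) with RAD21 without CTCF. Among regions with CTCF, those with RAD21 were kept less often by 7.64 points at like width (interval -8.99 to -6.29). The difference was -8.48 at like score of the region and -4.97 at like score of the strongest CTCF peak, whose median was 575.9 with RAD21 and 107.3 without. With SMC3 in place of RAD21 it was -6.87 at like width. The comparison was drawn up after these values were seen. Other factors were present to a like degree, with 1 or more of HNF4A, JUND, KLF5, MYC, REST and RFX2 in 48.5% of the regions with CTCF and RAD21 and 49.6% of those with CTCF without RAD21. Where none of these 6 factors was present, 65.6% of 3726 regions with CTCF and RAD21 and 78.9% of 1922 with CTCF without RAD21 were kept. Where 1 or more was present the shares were closer, 89.2% of 3504 with CTCF and RAD21 and 92.5% of 1890 with CTCF without RAD21.

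The same class was richest in new regions. Of 4580 siRAD21 regions with siRAD21 peaks of both CTCF and RAD21, 24.1% (interval 22.9 to 25.4) were new, against 18.4% with CTCF without RAD21, 14.1% with RAD21 without CTCF and 17.04% with neither. At like width the difference from neither was 10.1 points (8.93 to 11.3) with both, 6.01 with CTCF without RAD21 and 2.01 with RAD21 without CTCF. Among siRAD21 regions with CTCF, those with RAD21 were new more often by 3.73 points at like width (interval 2.25 to 5.22). In most cases the CTCF site itself was found under both siRNAs. Of the 2050 new regions with a siRAD21 CTCF peak 1396 (68.1%) also held a control CTCF peak, and of the 1364 with a siRAD21 RAD21 peak 992 (72.7%) also held a control RAD21 peak. Peaks without a control counterpart were still more frequent there than in the whole lists. For CTCF they were 30.5% of siRAD21 peaks in new regions, 23.3% in overlapping regions and 12.9% of all. For RAD21 they were 24.8% in new regions, 30.3% in overlapping regions and 13.7% of all. The excess over the whole lists was thus not particular to new regions. Of the 5571 kept control regions with CTCF and RAD21, 52.0% held siRAD21 peaks of both and 26.0% of CTCF alone. Of the 1659 lost ones 53.5% held both and 24.5% CTCF alone, close to the shares in kept regions.

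**Figure D4:**
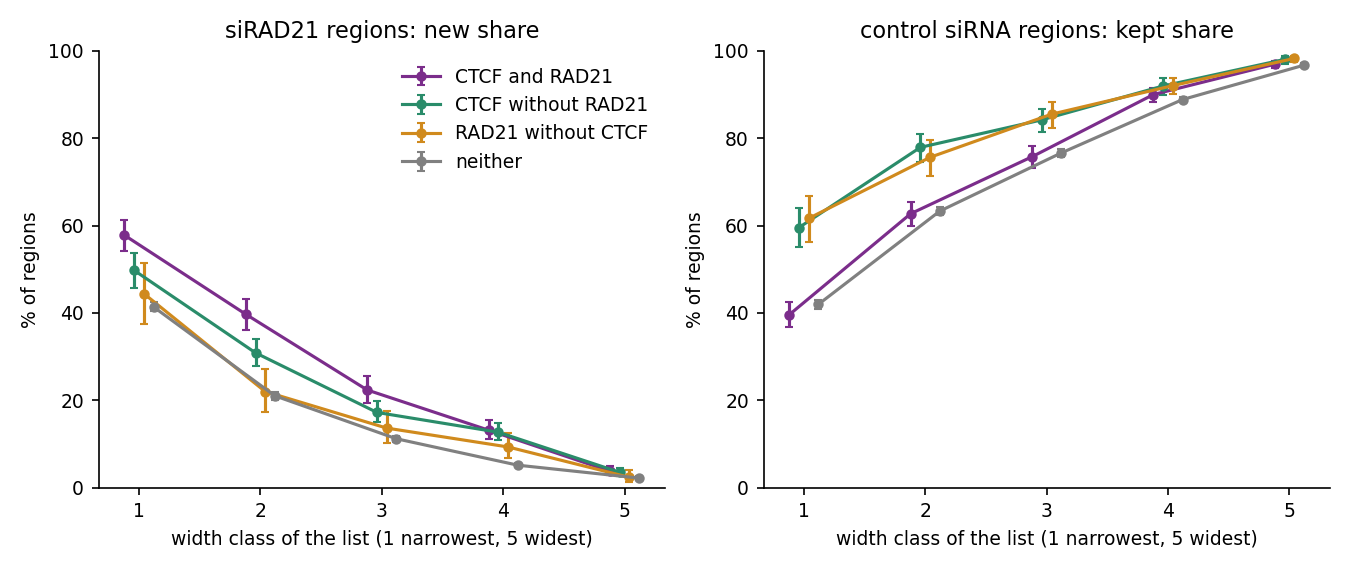
New share of siRAD21 regions (left) and kept share of control siRNA regions (right) by width class, for regions with CTCF and RAD21 peaks, with either alone and with neither, with exact 95% counting intervals. In the narrowest class 39.6% of control regions with both were kept, against 59.6% with CTCF without RAD21, and in the widest class the shares of all 4 sets lie between 96.7% and 98.2%.

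By the number of targets inside a region, the kept share dipped at 3. The kept share was 87.7% among 5723 control regions with 2 of the 10 targets, 78.0% among 6094 with 3 and 87.1% among 3457 with 4, against 64.2% among 30414 with none. CTCF, RAD21 and SMC3 together were present in 49.7% of the regions with exactly 3 targets. They were present to a like degree in regions with 4 (47.1%), 5 (47.3%) and 6 targets (49.1%), and in more of those with 7 (66.2%) and with 8 or more (94.1%). Regions with 5 targets were kept at 91.1% and those with 6 at 94.7%. The part of these 3 proteins in the dip was not tested. At like width the differences from regions with none were 12.1 points with 2 targets, 4.18 with 3 and 8.38 with 4. They were 8.32 with 5, 8.30 with 6, 6.29 with 7 and 4.71 with 8 or more.

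Factor peaks inside kept regions were retained more often than those inside lost regions. Of the control JUND peaks, 42.6% of 3370 in kept regions and 13.9% of 397 in lost regions were overlapped by a siRAD21 JUND peak, against 35.1% of all JUND peaks. HNF4A peaks were retained at 37.3% in kept and 13.7% in lost regions (33.4% of all), MYC peaks at 30.6% in kept and 13.3% in lost regions (28.9% of all), and KLF5 peaks at 11.8% in kept and 2.96% in lost regions (10.2% of all). At like score of the factor peak the differences were 26.1 points for JUND (interval 22.3 to 29.8), 14.1 for HNF4A, 13.6 for MYC and 6.62 for KLF5. REST peaks, retained at 60.7% in kept and 45.7% in lost regions (69.1% of all), differed by 13.1 points. RFX2 peaks, retained at 20.9% in kept and 13.9% in lost regions (13.2% of all), differed by 5.71 points with an interval of -0.716 to 12.1. RAD21 peaks ran the other way without matching, retained at 38.4% in kept and 49.4% in lost regions (46.6% of all), but those in lost regions were stronger, with a median score of 126.4 in kept and 325.1 in lost regions. SMC3 peaks were retained at 22.3% in kept and 31.0% in lost regions (28.4% of all), and CTCF peaks at 66.4% in kept and 69.5% in lost regions (63.1% of all). At like score RAD21 peaks differed by 5.87 points, SMC3 peaks by 5.34 and CTCF peaks by 5.58, in each case higher in kept regions. NIPBL peaks differed by 8.15 points, retained at 18.6% in kept and 8.92% in lost regions (17.4% of all). The factor libraries differed in depth too. The ratio of filtered tags, siRAD21 over control siRNA, was 2.02 for JUND, 1.02 for MYC and 0.558 for HNF4A. It was 0.355 for KLF5, 0.352 for NIPBL and 0.346 for CTCF. In the control JUND and NIPBL lists 0 peaks had an FDR under 5%. The part of depth in the order of the factors, here and below, was not tested.

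Seen from the regions, kept shares differed with whether the proteins inside were retained, and not equally for all. Here retained has a wider meaning than above. A control region with a control peak of a protein counted as retaining it where any siRAD21 peak of that protein overlapped the region. The siRAD21 peak did not have to overlap the control peak. Control regions in which JUND was retained were kept in 95.7% of cases, against 84.3% where it was not, a difference at like width of 9.82 points (interval 8.17 to 11.5). NIPBL had 9.77 points, REST 7.51, HNF4A 7.37, MYC 7.19, RFX2 5.95 and KLF5 4.53. CTCF had 1.34 points (-0.0822 to 2.76), RAD21 -0.712 (-2.04 to 0.617) and SMC3 -2.17 (-3.59 to -0.742). At like score of the region these last 3 were 2.12, 1.71 and 0.287 points, so the sign for RAD21 and SMC3 depends on what is matched.

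Peaks of several factors were more often new inside new than inside overlapping H3K4me1 regions. Of the siRAD21 HNF4A peaks, 80.5% of the 488 in new regions had no control HNF4A peak, against 39.4% of the 5506 in overlapping regions and 47.3% of all, a difference at like score of 35.4 points (interval 31.9 to 39.0). Of the NIPBL peaks 79.4% in new and 62.3% in overlapping regions were new (66.3% of all), and of the JUND peaks 94.0% in new and 84.8% in overlapping regions (86.7% of all). MYC peaks were new at 50.6% in new and 38.8% in overlapping regions (45.1% of all). CTCF peaks were new at 30.5% in new and 23.3% in overlapping regions (12.9% of all). The shares were closer for REST, 62.4% in new and 61.3% in overlapping regions (34.6% of all), and for KLF5, 50.3% in new and 44.3% in overlapping regions (54.9% of all). They ran the other way for RAD21, 24.8% in new and 30.3% in overlapping regions (13.7% of all), for SMC3, 16.5% in new and 23.4% in overlapping regions (11.7% of all), and for RFX2, 56.3% in new and 64.4% in overlapping regions (76.3% of all). At like score the difference was 0.588 points for RAD21 and -3.25 for SMC3. Outside H3K4me1 regions the new shares went both ways. They were lower than in new regions for CTCF (7.62%), RAD21 (6.31%), SMC3 (6.74%) and REST (26.5%), near them for NIPBL (76.0%), JUND (92.4%) and HNF4A (72.6%), and higher for MYC (73.1%), KLF5 (88.8%) and RFX2 (90%).

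Regions were not evenly kept along the genome. On chromosome 19, known as the most gene-dense human chromosome, siRAD21 had 2354 regions over 7893854 bp and control siRNA 2236 regions over 6684599 bp, ratios of 1.05 and 1.18. It was the only chromosome with more regions under siRAD21, and with chromosomes 16, 17 and 22 one of 4 among 23 with more covered base pairs. It had both the highest new share, 25.4% (interval 23.7 to 27.2), and the highest kept share, 83.8% (82.2 to 85.3). At like width these were 7.50 and 11.4 points above the rest of the genome. The X chromosome had the lowest ratios and the lowest kept share, with 1347 siRAD21 and 1722 control regions, a covered bp ratio of 0.846 and a kept share of 63.7%. Its new share, 19.97%, was above the 17.7% of all siRAD21 regions, but this excess was not seen at like width. There its new share differed from the rest of the genome by -0.934 points (interval -2.95 to 1.08). The order of the ratios was not particular to H3K4me1. Chromosome 19 also had the highest ratio of peak numbers for RAD21, SMC3, NIPBL, CTCF, HNF4A, JUND and MYC, and the X chromosome the lowest for RAD21, SMC3, NIPBL, HNF4A and MYC.

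**Figure D5:**
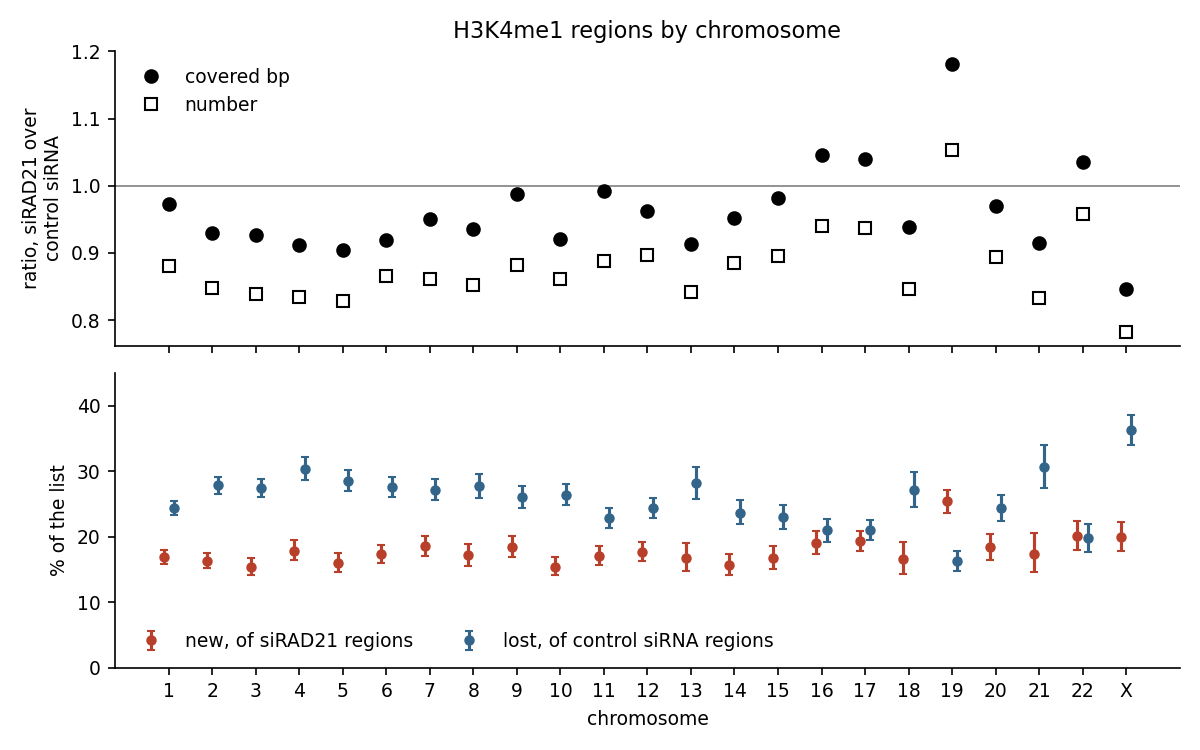
Ratio of siRAD21 over control siRNA for covered base pairs and region number (top), and new share of siRAD21 regions and lost share of control siRNA regions with exact 95% counting intervals (bottom), for 22 autosomes and the X chromosome. Chromosome 19 is highest in both ratios, at 1.18 and 1.05, and the X chromosome lowest, at 0.846 and 0.782.

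The same pattern was seen on a finer scale. Of 455 windows of 5 Mb with at least 50 control regions, 118 (25.9%) had more covered base pairs under siRAD21, and the median ratio was 0.923. The highest ratio, 1.69, was that of chr1:1-5000000 (hg18), with 176 siRAD21 and 122 control regions. Other high windows lay toward ends of chromosomes too, chr9:135000001-140000000 at 1.55, chr21:45000001-50000000 at 1.53, chr4:1-5000000 at 1.51 and chr20:60000001-65000000 at 1.48. The lowest ratio was 0.633 at chrX:120000001-125000000, with 34 siRAD21 and 55 control regions. Across windows the H3K4me1 ratio ran with the ratio of peak numbers of other targets, with a Spearman rho of 0.667 for HNF4A (260 windows), 0.663 for NIPBL (273), 0.638 for CTCF (455), 0.600 for RAD21 (455), 0.453 for SMC3 (455), 0.430 for MYC (292) and 0.233 for KLF5 (119). These windows share libraries, depth and base composition, so the values are descriptions. With control regions divided by the number of other control regions within 500 kb, the kept share was 65.3% in the sparsest class, with at most 20 neighbours, and 81.5% in the densest, with 51 or more. At like width the densest class was 11.1 points above the sparsest, and the covered bp ratio was 1.12 in the densest class and 0.801 in the sparsest.

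Some regions show the extremes. Coordinates are hg18, and genes are not given because no annotation of that build was used. The siRAD21 regions with the most tags among those with no control region within 1000 bp were chr4:154343309-154369718 (1223 tags, score 284.0), chr15:88367959-88393301 (1129 tags, 338.6) and chr1:200239693-200260183 (1075 tags, 846.2). The control regions with the most tags among those with no siRAD21 region within 1000 bp were chr7:130315932-130354675 (3714 tags, score 178.1), chr17:75606689-75623798 (2375 tags, 972.8) and chr1:203536310-203557060 (2133 tags, 1044.7). All 6 are over 17 kb wide, near the widths at which some tag-rich regions had scores under 100, but their own scores were above 100. Among control regions of at least 10000 bp the median score was 1350.6 in 24 lost and 1455.8 in 1222 kept ones. Among siRAD21 regions of that width it was 722.8 in 38 new and 1075.7 in 1484 overlapping ones. Several other proteins were still found where the mark's call was lost. In the lost region on chromosome 7 the control lists had peaks of 8 other targets, and the siRAD21 lists had RAD21, SMC3, NIPBL, CTCF, HNF4A and JUND peaks. Among lost regions with peaks of the most targets, chr9:115870256-115887989 held 1946 tags at a score of 2809.1 and peaks of 8 other control targets, of which RAD21, SMC3, CTCF, HNF4A and JUND were also found under siRAD21. Its score lies far above the cutoff of 50. The lost region chrX:19592209-19614301 held 8 other control targets and had CTCF, JUND and MYC peaks under siRAD21.

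Kept regions with the most targets held 9 of the 10 in the control lists. In chr14:92566519-92594724, 28206 bp wide with 3893 tags, a siRAD21 region of 29128 bp covered 28003 bp, and 5 of the targets had siRAD21 peaks. In chr19:48972076-48983671, 11596 bp wide, a siRAD21 region of 12280 bp covered the whole, and CTCF, HNF4A and KLF5 had siRAD21 peaks while RAD21, SMC3 and NIPBL did not. The siRAD21 regions that merged the most, apart from chromosome 8, each spanned 5 control regions, chr12:92051877-92075862 (23986 bp) and chr12:32918177-32940670 (22494 bp). The second held a siRAD21 peak of HNF4A alone among the other targets, with control peaks of CTCF, HNF4A and KLF5. The first held no siRAD21 peak of the other 10 targets, while RAD21, SMC3, NIPBL, HNF4A and MYC had control peaks there. Neighbouring broad regions on chromosome 17, chr17:68021731-68051909 and chr17:68064373-68093027 under control siRNA, were each divided into 4 siRAD21 regions, which covered 27680 of 30179 bp and 23028 of 28655 bp. The widest region under siRAD21 was chr17:44036666-44081748, 45083 bp, with a score of 132.7, and it spanned 4 control regions. The widest under control siRNA was chr12:12913960-12955955, 41996 bp, with 4059 tags and a score of 54.1, which 2 siRAD21 regions covered over 40916 bp.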

How the data were processed

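The submitters' processing notes name CASAVA 1.4, BWA, MACS 1.4 and the hg18 build. Per the file headers, the authors called each list separately with MACS 1.4.0rc2 at a p cutoff of 1e-05, against IgG from cells with the same siRNA (rabbit IgG for H3K4me1). Each deposited region had a count of tags, a significance score (−10 × log10 p) and a fold enrichment (a linear ratio over background), per the file headers. The last deposited column has no name and was taken as an FDR in percent. In all 22 lists, as many of its values lie under 5 as the labels count peaks at that FDR. These per-region values are the authors' own and served only to describe, rank or match regions within a list.

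Computed here were overlaps (1 bp, checked against bedtools 2.31.1 and on simulated data), exact Clopper-Pearson intervals and Mantel-Haenszel differences over 5 classes, with Python 3.11.15, numpy 2.4.6, pandas 2.3.3 and scipy 1.17.1. A gap is the space of up to 2000 bp between neighbouring regions of a list. Alternatives were FDR and score limits, equal list lengths, joining within 1000 bp, a larger overlap and other classes. Named regions, outside chromosome 8, were those with the most tags among lost and new regions, the most splits or merges, the greatest width and the most other targets. The members, lists and comparisons were chosen with earlier results of these data known. Depth is the tags per library in the deposited headers. IgG peaks and reference tables of another genome build were not used here.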

Additional observations from a re-analysis of the deposited data

How the results depend on the processing

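No paired analysis was possible because each siRNA had 1 H3K4me1 library, and no replicate could be left out. With FDR under 5% in both lists, a limit that removed control regions alone, the region number ratio was 1.29, the covered bp ratio 1.18 and the median width ratio 0.884, each opposite in direction to the values over all regions (0.877, 0.962 and 1.09). The kept share was then 86.2%, the new share 33.5%, the shared part of the control territory 82.2%, the split share 4.90% and the merging share 5.03%, so that the last 2 lay close together. The kept share difference was 7.27 points with any of 6 factors, and -4.14 for CTCF with against without RAD21. With a score of at least 100 in both lists, the ratios were 0.832 (number), 0.935 (bp) and 1.12 (width), the kept share 69.9%, the new share 18.4%, the shared territory 72.4%, the split share 3.63% and the merging share 6.39%. With regions joined within 1000 bp the number ratio was 0.866, the width ratio 1.12, the new share 15.8%, the split share 2.55% and the merging share 3.90%. Equal numbers of the strongest regions gave 78.9% kept, 22.6% new and 78.3% of the territory shared. When at least 50% of a region had to be covered, 72.6% were kept, 20.03% were new and the difference with any of 6 factors was 12.7 points.

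For any of 6 factors the difference in kept share was 11.5 points at like width, 22.1 without width classes, 10.2 in classes of score and 10.7 with factor peaks of at least 100. For RAD21 it was 1.47 points at like width, 8.59 without width classes and -0.563 with RAD21 peaks of at least 100. For CTCF with against without RAD21 it was -7.64 at like width and -4.97 in classes of the CTCF peak's score. The retained share difference of CTCF peaks was 5.58 points at like score and -3.18 without classes. The cause of these changes was not tested. Depth limits what absence from a list means: a lost or new region is one that the authors' caller did not call in a library of different depth and background.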

Other observations

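New regions lay nearer to kept control regions than lost regions did, but the distances are of unlike kinds. Lost regions were measured to regions of their own separately called list, and new regions to those of the other list. The median distance to the nearest kept control region was 7085.5 bp for new siRAD21 regions and 10944 bp for lost control regions. Among new regions 28.0% lay within 2000 bp of a kept control region, and among lost regions 18.1%. A region of the other list lay within 1000 bp of 2019 new regions (21.3%) and 1873 lost regions (11.9%), so these differ from kept regions by a short distance only.

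Control siRNA peaks were less frequent in new than in overlapping siRAD21 regions. Control peaks of MYC were found in 10.4% of new and 24.7% of overlapping regions, and siRAD21 peaks of MYC in 10.1% of new and 13.0% of overlapping regions. HNF4A had control peaks in 2.18% of new and 18.6% of overlapping regions, and siRAD21 peaks in 6.26% of new and 12.4% of overlapping regions. Seen from the other side, siRAD21 peaks of JUND were found in 3.52% of lost and 22.1% of kept control regions, and siRAD21 peaks of HNF4A in 1.51% and 12.2%. Of the 2556 lost regions with control peaks of the 6 factors, 76.1% held no siRAD21 peak of any of them, against 45.6% of 19488 kept regions. These shares were not matched on width, and all lost regions had a median width of 1674.5 bp, against 2741 bp for all kept ones.

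In one-to-one pairs the width ratio differed little with what the region held. It was 1.04 with and 1.01 without MYC, and 0.994 with and 1.02 without HNF4A. Pairs whose control region held both a control and a siRAD21 HNF4A peak had a median ratio of 1.02. Those with a control HNF4A peak alone had 0.977. Summits of paired regions lay a median of 161 bp apart, and 61.1% were within 250 bp.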
